A study of Mus musculus with 4 samples.

Results

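Plasmacytoid dendritic cells (pDCs) made up 111 of the 6625 kept barcodes of the YUMMER1.7 tumor libraries, 49 of 2053 in the long treatment cohort and 62 of 4572 in the short treatment cohort. They were selected on measured counts: a kept barcode had 200 to 5000 detected genes, at most 5% mitochondrial UMIs and a top hashtag at least 3 times the second, and a pDC barcode also had at least 2 Siglech UMIs, at least 1 UMI of Ly6d, Ccr9 or Cox6a2 together, and no UMI of Cd3d, Cd3e or Cd3g. A UMI (unique molecular identifier) marks 1 captured mRNA molecule, and CPM is UMIs per 1000000 UMIs of the same barcodes. Because these counts chose the cells, every contrast of pDCs with all other kept barcodes is given as a description without a test.

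YUMMER1.7, a mouse melanoma line, was grown subcutaneously in male wild-type C57BL/6J mice of 7 to 8 weeks. The short treatment cohort had 1 week of antibody in 2 doses and was harvested at day 14. The long treatment cohort had 2 weeks in 4 doses and was harvested at day 21. In each cohort isotype, anti–PD-1, anti-MIF and combined anti–PD-1/anti-MIF tumors were labeled with antibody hashtags and pooled into 1 library of sorted cells, mixed at 80% CD45+ and 20% CD45-. The feature list also held hashtag 5, anti-PD1-MIF-DDT, which the sample labels do not list, and its barcodes are given as values and enter no main test. The libraries held 2516 barcodes with 23702910 gene UMIs (long) and 4987 barcodes with 31799441 gene UMIs (short). They shared 20 barcode sequences, 1 of them a pDC in the long cohort. Hashtags do not separate mice within an arm, each cohort is 1 library, and cohort, library, tumor age and dose number cannot be told apart. The p-values measure only the spread between arm sums.

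pDCs are a dendritic cell lineage that senses nucleic acids in endosomes through TLR7 and TLR9 and is known for very high type I interferon output after viral stimulation. The E protein TCF4 (E2-2) maintains their identity and is opposed by ID2, which favors conventional dendritic cells. In tumors pDCs are often described as poorly activated, with low interferon production and low costimulation.

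The arm of every cell rests on 15-base hashtag oligos read beside its mRNA, shown here because they define all groups.
Isotype: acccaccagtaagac
anti-PD1: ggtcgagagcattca
anti-MIF: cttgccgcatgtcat
anti-PD1-MIF: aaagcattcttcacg
anti-PD1-MIF-DDT: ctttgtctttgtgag

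The 250 bases before the start sites of 3 genes are shown, from RefSeq (GRCm38.p6). They are the rule genes Siglech and Ccr9 and the gene with the highest pooled log2 ratio outside the rule, Klk1. Each E-box, the CANNTG letters that E proteins such as TCF4 bind, is in capitals. The motif reads the same on both strands. For Ccr9 the annotations differ, as the GENCODE vM21 gene begins upstream, at base 123678439, and this window before the RefSeq start lies inside it. Siglech lies on the plus strand at chr7:55767934-55768183, Ccr9 on the plus strand at chr9:123766961-123767210 and Klk1 on the plus strand at chr7:44225110-44225359.
Siglech: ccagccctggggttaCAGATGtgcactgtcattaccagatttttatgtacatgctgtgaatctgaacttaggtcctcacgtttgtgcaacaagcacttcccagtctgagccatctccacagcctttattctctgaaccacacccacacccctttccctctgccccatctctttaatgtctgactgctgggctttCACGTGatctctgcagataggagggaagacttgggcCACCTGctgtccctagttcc
Ccr9: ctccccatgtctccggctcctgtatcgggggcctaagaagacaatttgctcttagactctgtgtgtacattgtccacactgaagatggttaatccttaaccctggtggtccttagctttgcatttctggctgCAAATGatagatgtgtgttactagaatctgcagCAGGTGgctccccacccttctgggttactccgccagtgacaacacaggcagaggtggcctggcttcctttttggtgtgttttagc
Klk1: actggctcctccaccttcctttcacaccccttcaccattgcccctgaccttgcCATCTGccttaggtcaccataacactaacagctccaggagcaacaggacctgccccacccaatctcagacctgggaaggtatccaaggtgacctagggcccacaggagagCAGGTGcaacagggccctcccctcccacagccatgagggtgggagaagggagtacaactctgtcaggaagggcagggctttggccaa
The windows held 3, 2 and 2 matches, and 66.2% of all 32851 promoter windows of this length held at least 1.

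The genes that chose the cells were abundant in nearly all of them. Siglech, a receptor of mouse pDCs, had a median of 15 UMIs per cell in the long and 12 in the short cohort, and 36 and 42 cells had 10 or more. It was seen in 6 and 10 other barcodes. All 3 of Ly6d, Ccr9 and Cox6a2 were detected in 42 of 49 and 45 of 62 pDCs. Just inside the threshold, with 2 Siglech UMIs, were 1 and 2 cells. Just outside, with 1 UMI and the other conditions met, were 1 and 2. Siglech ran over the 10 arms at a lowest, median and highest of 1381, 2073 and 2432 CPM, Cox6a2 at 1820.2, 2284 and 3244 CPM, Ly6d at 1645, 2636 and 4134 CPM and Ccr9 at 425, 769 and 1216 CPM. In a neighbor graph built without the rule genes, a median of 93.3% of the 15 nearest neighbors of a long-cohort pDC, and 100% for the short cohort, were pDCs themselves.

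The label was checked against markers. Tcf4, which the rule did not use, was detected in 100% of the cells at 1788 CPM against 80.7 CPM (log2 ratio 4.45), and Bst2, a tethering receptor and classical mouse pDC antigen, reached 3845 CPM against 464 CPM (log2 ratio 3.05). Median depth was 7861 UMIs in long-cohort and 6180 in short-cohort pDCs, beside 8813 and 5904.5 in other barcodes, and the median mitochondrial share was 0.978% and 1.28% in pDCs beside 0.532% and 0.712%. Their part in the values below was not tested. The hashtag filter removed 11 and 6 otherwise qualifying barcodes, the mitochondrial and gene limits 2 and 0.

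The share of pDCs was lower under each single antibody than under isotype in both cohorts, while the combination lay below isotype in the long cohort and above it in the short cohort. In the long cohort it was 3.77% (6 of 159 barcodes, interval 1.40% to 8.03%) under isotype, 3.11% (12 of 386 barcodes, interval 1.62% to 5.37%) under anti–PD-1, 2.46% (22 of 895 barcodes, interval 1.55% to 3.70%) under anti-MIF and 1.74% (5 of 288 barcodes, interval 0.566% to 4.0%) under the combination. In the short cohort it was 2.15% (16 of 744 barcodes, interval 1.23% to 3.47%) under isotype, 0.700% (12 of 1714 barcodes, interval 0.362% to 1.22%) under anti–PD-1, 1.23% (7 of 567 barcodes, interval 0.498% to 2.53%) under anti-MIF and 3.78% (18 of 476 barcodes, interval 2.26% to 5.91%) under the combination. The combination was thus the lowest labeled arm of the long cohort and the highest of the short cohort. The short-cohort rank held under every setting run on the cells and filters, but with a hashtag ratio of 5 anti-MIF (1.49%) lay below the combination (1.90%) in the long cohort. Without pDCs carrying other-type markers, short-cohort anti-MIF (0.882%) lay above isotype (0.538%). Without pDCs above the 18-gene list described below, long-cohort anti–PD-1 (2.59%) lay above isotype (2.52%). Hashtag 5 held 1.23% (4 of 325 barcodes, interval 0.336% to 3.12%) and 0.840% (9 of 1071 barcodes, interval 0.385% to 1.59%). Intervals are 95% Clopper-Pearson and cover counting error only. The sort fixed the CD45+ fraction, so these are shares of a mixed suspension.

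**Figure D1:**
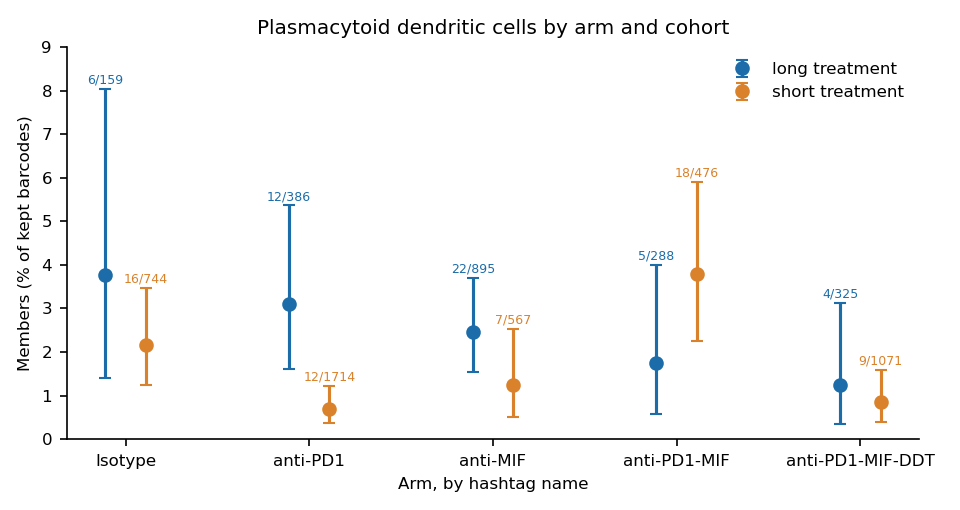
Share of kept barcodes that were pDCs (%, y axis) by arm (x axis) in the long (blue) and short (orange) treatment cohorts, with 95% Clopper-Pearson intervals and counts above. The combination arm is the highest labeled short-cohort arm (18 of 476) and the lowest labeled long-cohort arm (5 of 288).

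In all, 3 paired comparisons over the labeled arms asked whether the share followed cohort or antibody, and none passed. Long minus short averaged 0.802 ± 1.96 percentage points (SD, n = 4 pairs, higher in 3 of 4, exact sign-flip permutation p = 0.5, adjusted p = 1). Anti-MIF minus its partner arm averaged -0.131 ± 2.15 points (SD, n = 4 pairs, lower in 3 of 4, exact sign-flip permutation p = 1, adjusted p = 1). Anti–PD-1 minus its partner arm averaged -0.0726 ± 1.78 points (SD, n = 4 pairs, lower in 3 of 4, exact sign-flip permutation p = 1, adjusted p = 1). The tests were two-sided, p-values were adjusted over the 3, and the smallest p that 4 pairs allow, 2 of 16 sign patterns, is above 0.05. The mean antibody differences changed sign under several settings.

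The pDC transcription factors were mostly high. Of 12 listed factors, 7 had a log2 ratio of at least 2 over other barcodes and 10 were higher in all 10 arms, beside 7.78% of 7458 genes at that ratio and 26.2% of 1634 abundant genes higher in all arms. The same cells chose the contrast, so nothing is read from the difference. Spib, an ETS factor of pDC development, stood at 236 CPM against 2.12 CPM (log2 ratio 6.25), Bcl11a, a regulator upstream of Tcf4, at 519.9 CPM against 9.98 CPM (log2 ratio 5.57), and Runx2, a factor for pDC exit from marrow, at 877 CPM against 90.4 CPM (log2 ratio 3.26). Irf8, shared with conventional type 1 dendritic cells (cDC1s), stood at 2263 CPM against 282 CPM (log2 ratio 3.0) and Mef2c at 652 CPM against 74.6 CPM (log2 ratio 3.11). Irf7, the master factor of interferon-alpha transcription, was level at 419.7 CPM against 415 CPM (log2 ratio 0.02), and Zeb2 stood at 451 CPM against 641 CPM (log2 ratio -0.50). Of 8 opposing or conventional dendritic cell factors, 5 had a log2 ratio of -2 or less, 3 of them among the 5 factors with at least 10 UMIs in pDCs, beside 2.80% of all genes with that many. Id2 stood at 8.88 CPM against 291 CPM (log2 ratio -4.88), with 7 UMIs in all pDCs, and Batf3, a cDC1 factor, had 2 UMIs. Irf4 went the other way at 44.4 CPM against 13.7 CPM (log2 ratio 1.62).

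Surface and secreted genes of the lineage were mostly high. Of 32, 25 had a log2 ratio of at least 2, with a median of 4.70 beside 0.32 over all genes with 10 UMIs in pDCs. Rule genes were not taken out of any gene list, so list counts and medians include them where a list holds them. Ly6d is among the lymphoid-shared genes and Ccr9 among the chemokine and growth factor receptors, and both were high by the rule. Cd300c, an immunoglobulin-family receptor, reached 403 CPM against 1.27 CPM (log2 ratio 7.48) and Cd7 775 CPM against 14 CPM (log2 ratio 5.69). Flt3, the receptor for the dendritic cell growth factor, stood at 217 CPM against 23.9 CPM (log2 ratio 3.13) and the interleukin-7 receptor gene Il7r at 431 CPM against 72.1 CPM (log2 ratio 2.56). Lag3, an inhibitory receptor that binds class II MHC, was detected in 76.6% of pDCs at 318 CPM against 33.3 CPM (log2 ratio 3.22). Cd4 was detected in 45.0% and Cd8a in 45.0%. After thinning each barcode to 2000 UMIs, Cd4 was found in 21.3% of pDCs, 0.958% of all other barcodes and 0.0880% of macrophages, and Cd8a in 24.1%, 6.57% and 0%. T cells are among the other barcodes, and their own shares are not given here.

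Klk1, a kallikrein serine protease gene at chr7:44225360-44229618 (GRCm38), had the highest log2 ratio among genes outside the rule with both cohorts pooled. It stood at 1004 CPM against 1.31 CPM (log2 ratio 8.76), but only 55.9% of pDCs held it. In the short cohort alone its log2 ratio, 7.85, lay below that of Gm21762, 8.49. For comparison, T cells were other kept barcodes with at least 2 UMIs of Cd3d, Cd3e and Cd3g together. Without Cd3 UMIs, B cells had at least 2 of Cd79a and Ms4a1, cDC1s at least 2 of Xcr1 and Clec9a, mature dendritic cells at least 1 of Ccr7 and 2 of Fscn1, and macrophages at least 5 of C1qa, C1qb and C1qc. After thinning to 2000 UMIs, the share with Klk1 was 41.7% of pDCs and 0% of T cells. Kallikrein genes are near copies of each other, so reads may be split between them. The top 20 also held Grm8, a glutamate receptor, at 363 CPM against 0.657 CPM (log2 ratio 7.78) and Cacna1e, a calcium channel subunit, at 426 CPM against 1.46 CPM (log2 ratio 7.44). The calcium pump gene Atp2a1 stood at 191 CPM against 0.445 CPM (log2 ratio 7.06), the sodium pump subunit Atp1b1 at 683 CPM against 6.0 CPM (log2 ratio 6.61) and Lefty1, a TGF-beta family ligand, at 207 CPM against 0.784 CPM (log2 ratio 6.86). Among cytochrome c oxidase subunits only the muscle-type Cox6a2, a rule gene, passed a log2 ratio of 2. Its ubiquitous counterpart Cox6a1 stood at 347 CPM against 343 CPM (log2 ratio 0.02).

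**Figure D2:**
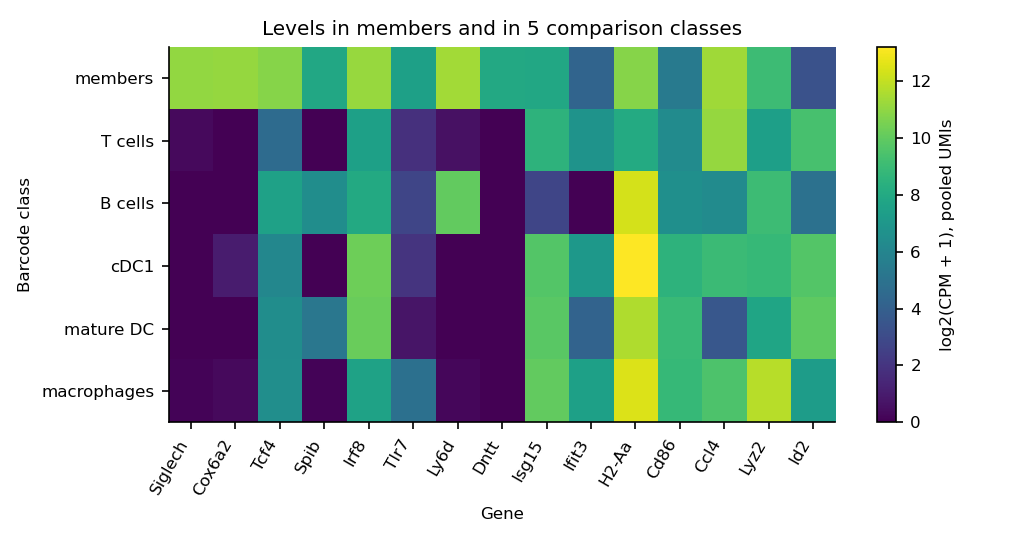
Pooled level, log2(CPM + 1) (color), of 15 genes (x axis) in pDCs and 5 comparison classes defined by simple marker gates (y axis). Siglech, Cox6a2 and Dntt are near 0 outside pDCs, while Isg15, H2-Aa and Id2 are higher in cDC1s and macrophages than in pDCs.

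Transcripts of the endosomal sensing machinery were read. Tlr7, the sensor of single-stranded RNA, stood at 178 CPM against 33 CPM (log2 ratio 2.39) and Tlr9, the CpG DNA sensor, at 63.4 CPM against 24.1 CPM (log2 ratio 1.36). After thinning, Tlr7 was found in 27.8% of pDCs, 0.312% of T cells and 5.02% of macrophages. Their chaperone Unc93b1 reached 803 CPM against 334 CPM (log2 ratio 1.26), the endolysosomal nuclease Pld4 983 CPM against 251 CPM (log2 ratio 1.96) and the transporter Slc15a4 107 CPM against 35.5 CPM (log2 ratio 1.56). Over the list of sensing genes the median log2 ratio was 0.60 among 21 genes with 10 UMIs in pDCs. At 10 CPM or more over all kept barcodes, 4 of 23 sensing genes were lower in all 10 arms, beside 13.8% of all 7644 genes at that level. Among the low ones, Tlr3, an endosomal double-stranded RNA sensor, had 0 UMIs, the cytosolic RNA sensor Ddx58 had 1 UMI and Ifih1 stood at 24.1 CPM against 111 CPM (log2 ratio -2.16).

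No interferon transcript was read in pDCs. All 21 type I, II and III ligand genes had 0 UMIs in 788633 pDC UMIs, which allows up to 3.80 CPM for each, counting 3 UMIs as the limit. In all other barcodes 17 of these genes, every Ifna gene among them, also had 0 UMIs, while Ifnb1 had 8 and Ifng 1602. The Ifna genes are near copies, so reads from them may be lost in counting. Of 31 interferon-stimulated genes with 10 UMIs in pDCs, 11 had a log2 ratio of -2 or less, beside 2.80% of all genes, and the median was -1.31. Isg15, a ubiquitin-like modifier, stood at 243 CPM against 1243 CPM (log2 ratio -2.35) and was lower in all 10 arms. Ifit3 was at 17.8 CPM against 219.8 CPM (log2 ratio -3.56), Rtp4 at 17.8 CPM against 202 CPM (log2 ratio -3.44) and Oas2 at 0 UMIs. Genes that went the other way included Bst2, Ifi44 at 79.9 CPM against 13.9 CPM (log2 ratio 2.44) and Stat2 at 259.9 CPM against 132 CPM (log2 ratio 0.97). The receptor subunits Ifnar1 and Ifnar2 were higher, at 301 CPM against 88.4 CPM (log2 ratio 1.75) and 609 CPM against 215 CPM (log2 ratio 1.5), and Ifngr1 lower, at 39.3 CPM against 265 CPM (log2 ratio -2.72).

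**Figure D3:**
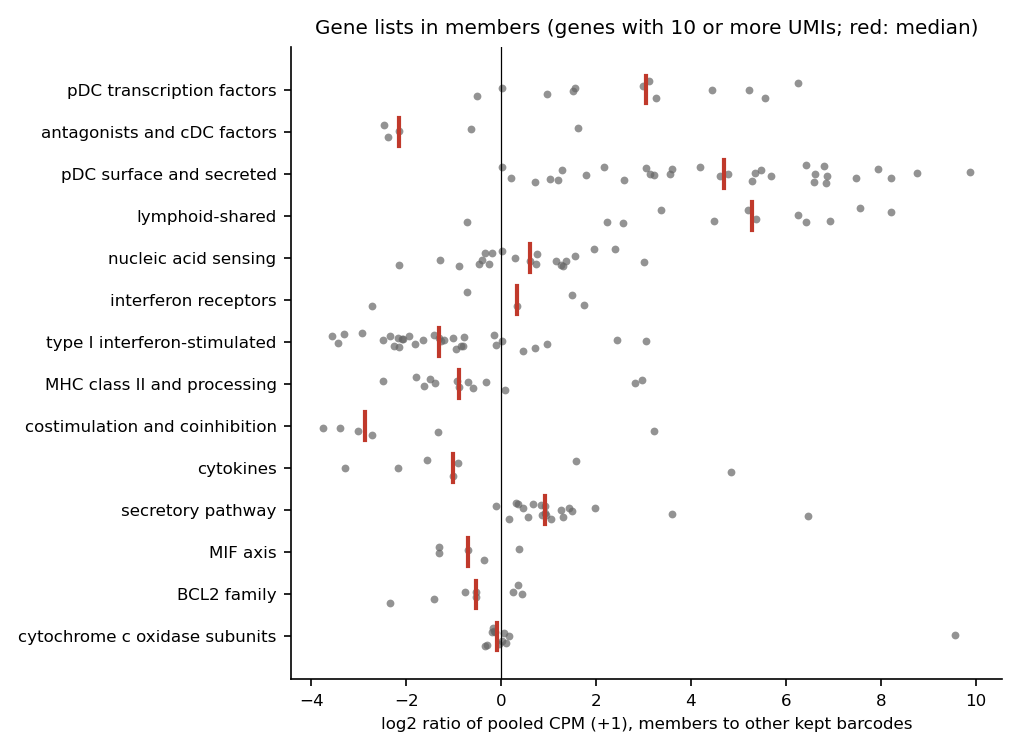
Log2 ratio of pooled CPM (+1) in pDCs to other kept barcodes (x axis) for the genes of 14 lists with 10 or more pDC UMIs (points). Red bars are list medians. Transcription factor, surface and lymphoid-shared genes lie to the right, and interferon-stimulated and costimulatory genes mostly to the left. Rule genes were kept in the lists, such as Ly6d among the lymphoid-shared genes, and lie to the right by the rule.

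Of antigen presentation genes with 10 CPM or more over all kept barcodes, 6 of 14 were lower in all 10 arms, and of costimulation and coinhibition genes 10 of 13, beside 13.8% of all genes at that level. The class II genes H2-Aa and H2-Ab1 stood at 1766 CPM against 3254 CPM (log2 ratio -0.88) and 976 CPM against 2562 CPM (log2 ratio -1.39), whereas H2-Oa, a brake on class II loading, was at 171 CPM against 23.3 CPM (log2 ratio 2.83) and the protease Ctsl at 1565 CPM against 200.40 CPM (log2 ratio 2.96). Cd80 had 0 UMIs, the other B7 ligand Cd86 stood at 43.1 CPM against 466 CPM (log2 ratio -3.40) and Cd274, which encodes PD-L1, at 34.2 CPM against 286 CPM (log2 ratio -3.03). Gzmb, Prf1, Ido1 and Il10 had 0 UMIs.

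Among cytokines, Ccl4, an inflammatory chemokine, was the most abundant at 2561 CPM against 858 CPM (log2 ratio 1.58), in 64.9% of pDCs. By arm it was 1069, 342, 3635, 1104 and 3189 CPM in the long cohort (isotype, anti–PD-1, anti-MIF, combination, hashtag 5) and 3511, 3300.4, 3161, 1726 and 3328 CPM in the short. The long-cohort anti–PD-1 arm was the lowest, and the cohorts overlapped. Il12a, the p35 subunit shared by interleukin-12 and interleukin-35, had 31 UMIs in pDCs and 19 in all other barcodes, or 39.3 CPM against 0.403 CPM, a log2 ratio of 4.84, while Il12b had 0. Ccl5 was nearly absent at 2.54 CPM against 895 CPM (log2 ratio -7.99). Of cytokine genes with 10 CPM or more over all kept barcodes, 7 of 15 were lower in all 10 arms, and of chemokine and growth factor receptor genes 6 of 15, beside 13.8% of all genes at that level. The receptors had a median log2 ratio of 0.15. Low ones were Csf1r, the macrophage growth factor receptor gene, at 21.6 CPM against 343 CPM (log2 ratio -3.93), Ccr1 at 22.8 CPM against 194 CPM (log2 ratio -3.04) and Ccr2 at 95.1 CPM against 292 CPM (log2 ratio -1.61). Cxcr3 stood at 72.3 CPM against 7.21 CPM (log2 ratio 3.16) and S1pr4, a lymphocyte trafficking receptor, at 77.3 CPM against 6.68 CPM (log2 ratio 3.35).

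For the targeted pathway, Mif was lower in pDCs in all 10 arms, at 298 CPM against 735 CPM (log2 ratio -1.30). Over the arms it ran at a lowest, median and highest of 216, 284 and 553 CPM. Its receptor gene Cd74 was detected in 97.3% at 5688 CPM against 9232 CPM (log2 ratio -0.70) and the coreceptor Cd44 at 539 CPM against 690.0 CPM (log2 ratio -0.36). The homolog Ddt stood at 79.9 CPM against 61.2 CPM (log2 ratio 0.38). Of 7 listed genes of this pathway, 5 had at least 10 UMIs in pDCs and 2 had 0, the receptor genes Cxcr2 and Ackr3. Not all of the 5 are given here, so these zeros do not show that every alternative receptor was absent. Pdcd1, the target of anti–PD-1, had 3 UMIs.

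The cells carried lymphoid transcripts without B cell identity genes. Dntt, the template-independent DNA polymerase of lymphoid progenitors, stood at 249 CPM against 0.318 CPM (log2 ratio 7.56), the light chain gene Iglc3 at 673 CPM against 4.51 CPM (log2 ratio 6.93), the heavy chain gene Ighm at 534 CPM against 50.4 CPM (log2 ratio 3.38) and the adaptor Blnk at 568 CPM against 12.8 CPM (log2 ratio 5.37). Cd79a, Ms4a1, Pax5, Ebf1, Rag1 and Rag2 had 0 UMIs. After thinning, Iglc3 was found in 55.6% of pDCs, 28 of 40 B cells and 0% of T cells. In B cells Iglc3 stood at 799.7 CPM, Ighm at 1167 CPM and Mzb1 at 274 CPM, all above the pDC level, and Blnk at 414 CPM, while Dntt had 0 UMIs there. Constant-region genes of light chains are near copies, so their split is uncertain. Secretory pathway genes had a median log2 ratio of 0.93, with Mzb1, a plasma cell-type chaperone, at 207 CPM against 1.36 CPM (log2 ratio 6.46), Xbp1 at 335 CPM against 139 CPM (log2 ratio 1.27) and Herpud1 at 183 CPM against 45.7 CPM (log2 ratio 1.97). After thinning to 2000 UMIs, a cell was counted as cycling with at least 3 UMIs over 14 cell cycle genes. Of 108 pDCs 0 reached this, which allows up to 3.36% (upper 95% Clopper-Pearson bound, for counting error only and not for missed detection), and other kept barcodes stood at 2.81%, below that bound. The share was 9.20% of T cells, 8.33% of cDC1s and 5.63% of macrophages, and 0 of 159 mature dendritic cells and 0 of 40 B cells. Of BCL2 family genes with 10 CPM or more over all kept barcodes, 5 of 12 were lower in all 10 arms, beside 13.8% of all genes at that level, and the median log2 ratio was -0.53. The survival genes Bcl2a1a, Bcl2a1b and Mcl1 stood at 0 UMIs, 7.61 CPM against 351 CPM (log2 ratio -5.35) and 349 CPM against 928 CPM (log2 ratio -1.41).

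Markers of other cells were checked over whole lists. All 5 NK markers had 0 UMIs, and 5 of 6 B cell markers did. Of 7 T cell markers 6 had 0 UMIs, but 3 of these, Cd3d, Cd3e and Cd3g, were set to 0 by the rule. Among 6 monocyte markers, 0 had 0 UMIs and the list summed to 738 CPM in pDCs against 5460.4 CPM in other barcodes. Of these Lyz2 was the most abundant, with 422 UMIs in 12 pDCs, 138 of them in 1 short-cohort cell and 80 in 1 long-cohort cell. The endothelial-type genes Cdh5 and Pecam1 were detected in 52.3% and 54.1% of pDCs, while Col1a1, Col1a2 and Col3a1 had 0 UMIs. Among 6 stromal and endothelial markers, 3 had 0 UMIs and the list summed to 269 CPM in pDCs against 51.8 CPM in other barcodes. Among 5 cDC1 markers, 1 had 0 UMIs and the list summed to 265 CPM in pDCs against 171 CPM in other barcodes. In both lists the sum was higher in pDCs, with Pecam1 and Cd24a the most abundant genes, and the part of stromal cells in the results was not tested. Leaving out the 54 pDCs with 3 or more UMIs over 7 other marker lists, the cDC1 list included, gave 0 calls in all 3 gene comparisons. This left 1 cell in the long combination, too few for an arm sum, so that arm left the fit as well. The main fits also called 0, so nothing about these markers can be read from this count. Clec9a, a cDC1 marker, was in 35.1% of pDCs and Xcr1 in 0. Among 8 macrophage markers, 1 had 0 UMIs and the list summed to 167 CPM in pDCs against 3764 CPM in other barcodes. Among 5 neutrophil markers, 2 had 0 UMIs and the list summed to 12.7 CPM in pDCs against 781 CPM in other barcodes. Among 6 mature dendritic cell markers, 2 had 0 UMIs and the list summed to 25.4 CPM in pDCs against 439 CPM in other barcodes. Among 7 melanocyte-lineage markers, 6 had 0 UMIs and the list summed to 22.8 CPM in pDCs against 56.1 CPM in other barcodes. Among 4 plasma cell markers, 2 had 0 UMIs and the list summed to 2.54 CPM in pDCs against 14.5 CPM in other barcodes. Of genes described for transitional dendritic cells 6 of 13 with 10 CPM or more over all kept barcodes were lower in all 10 arms, and of immediate early and stress genes 9 of 15, beside the same 13.8%. Doublets within an arm are not removed by hashtags and no doublet caller was run.

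Between cohorts, no gene in pDCs passed an adjusted p of 0.05 in edgeR's quasi-likelihood test over 8 arm sums, 0 of 1910 (0%), although 293 (15.3%) had an unadjusted p under 0.05, 135 higher and 158 lower in the long cohort. DESeq2 called 0 with 177 under 0.05. The smallest adjusted p was 0.0652. The genes with the lowest p were Atf3, a stress factor, H2-T22, a nonclassical class I gene, and Etv6, an ETS repressor. Atf3 was 0, 0, 11.8 and 21.6 CPM in the labeled long arms and 216, 300.03, 91.2 and 114 CPM in the short (log2 fold change -3.99 ± 0.68 (SE), adjusted p = 0.0652 by edgeR). The labeled arms did not overlap, but hashtag 5 reversed the order, at 586 and 0 CPM in the long and short cohort, where Lyz2 was 2636 and 0 CPM. The long hashtag 5 sum held 4 cells, and 80 of its 81 Lyz2 UMIs came from 1 cell. H2-T22 was 523, 283, 348 and 454 CPM in the long and 149, 125, 122 and 121 CPM in the short arms (log2 fold change 1.58 ± 0.30 (SE), adjusted p = 0.0652 by edgeR). Etv6 was 341, 283, 430.1 and 303 CPM in the long and 614, 800.1, 759.9 and 818 CPM in the short arms (log2 fold change -1.08 ± 0.21 (SE), adjusted p = 0.0652 by edgeR). In hashtag 5 H2-T22 was 130.2 CPM in the long and 105 CPM in the short cohort, so the long value lay below the short isotype arm, and Etv6 was 553 CPM in the long and 335 CPM in the short cohort, the reverse of the labeled arms.

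Irf7 and H2-D1, named after their values were seen, did not overlap between cohorts over the 5 arms, and of all 1910 genes 2.04% lay above and 2.98% below in the long cohort in this way. Irf7 was 501, 542, 583, 1017 and 521 CPM in the long and 257, 263, 304, 182 and 314 CPM in the short arms (log2 fold change 1.43 ± 0.30 (SE), adjusted p = 0.0652 by edgeR, 0.0131 to 0.777 over the alternatives). In the other barcodes of the same arms it was 405, 692, 498, 452 and 1086 CPM and 223, 309.5, 324, 337 and 269 CPM, also without overlap. H2-D1, a classical class I gene, was 3754, 3797, 3105, 3419.5 and 3156 CPM in the long and 2365, 1800.2, 1763, 2166 and 2198 CPM in the short arms (log2 fold change 0.83 ± 0.18 (SE), adjusted p = 0.0673 by edgeR). All 8 class I H2 genes tested had positive fold changes and 6 were higher in all 4 pairs, beside 10.3% of all genes. In hashtag 5 H2-K1 went the other way, at 1627 CPM in the long and 2009 CPM in the short cohort. This group was picked after its values were seen, and its members are near copies. Of the tested genes, 4.87% lay above and 5.18% below without overlap of the 4 labeled arms. Klk1 was 1479, 979, 2569, 389.6 and 358 CPM in the long and 573, 37.5, 304, 568 and 460.5 CPM in the short arms, with overlap (log2 fold change 1.69 ± 0.47 (SE), adjusted p = 0.128 by edgeR). Lyz2 was 0, 11.8, 5.89 and 195 CPM in the labeled long and 1676, 575, 60.8 and 606 CPM in the labeled short arms (log2 fold change -4.23 ± 0.89 (SE), adjusted p = 0.0652 by edgeR). Leaving out the pDCs that carried other-type transcripts gave 24 calls with a list of 16 genes and 0 with an 18-gene version of it, both chosen after seeing the data. Without the short isotype sum the count was 28.

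**Figure D4:**
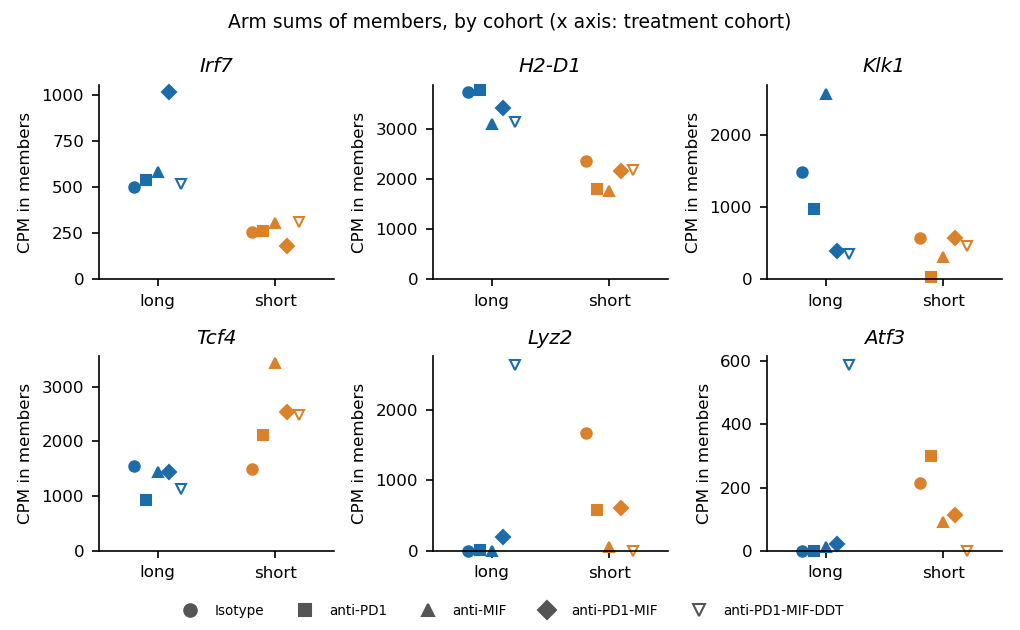
CPM in pDC arm sums (y axis) in the long (blue) and short (orange) cohorts (x axis) for 6 genes. Symbols are arms and open triangles hashtag 5, which entered no main test. Irf7 and H2-D1 separate by cohort in all arms, as do 2.04% of tested genes upward and 2.98% downward, while Klk1, Tcf4 and Lyz2 overlap.

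No gene passed for either antibody. For anti-MIF 0 of 1910 genes (0%) passed by edgeR or by DESeq2, with 67 (3.51%) and 27 at an unadjusted p under 0.05. The lowest p belonged to Cited2, a transcriptional coregulator (log2 fold change -3.09 ± 0.72 (SE), adjusted p = 0.995 by edgeR), Hivep3, a zinc finger factor (log2 fold change 1.42 ± 0.37 (SE), adjusted p = 0.995 by edgeR), and Il1b (log2 fold change -3.29 ± 0.86 (SE), adjusted p = 0.995 by edgeR). Cited2 was 137, 59.0, 17.7 and 0 CPM in the long and 124, 188, 0 and 15.1 CPM in the short arms, lower with anti-MIF in 4 of 4 pairs, as were 8.64% of all genes. Il1b was 0, 23.6, 23.6 and 43.3 CPM in the long and 1129, 200.02, 0 and 7.57 CPM in the short arms, higher with anti-MIF in the 2 long pairs and lower in the 2 short pairs. Short isotype held most of it, and the 6 monocyte markers summed to 2216 CPM in that arm, against 875, 152 and 856 CPM in the other labeled short arms. The part of monocyte transcripts in this value was not tested.

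For anti–PD-1 0 of 1910 genes (0%) passed by edgeR or by DESeq2, with 46 (2.41%) and 22 at an unadjusted p under 0.05. The lowest p belonged to Mex3c, an RNA-binding ubiquitin ligase (log2 fold change -2.12 ± 0.50 (SE), adjusted p = 0.998 by edgeR), Chd2, a chromatin remodeler (log2 fold change -1.31 ± 0.39 (SE), adjusted p = 0.998 by edgeR), and Ifnar1 (log2 fold change -0.79 ± 0.25 (SE), adjusted p = 0.998 by edgeR). Ifnar1 was 387, 189, 495 and 195 CPM in the long and 257, 163, 456 and 288 CPM in the short arms. It was lower with anti–PD-1 in 4 of 4 pairs, as were 8.53% of all genes, and the arms overlapped between cohorts. Arm sums of 5 to 22 cells limit what these fits can show.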

How the data were processed

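The authors deposited UMI counts per gene and hashtag counts per barcode from Cell Ranger 7.1.0 on mm10, per the labels; the annotation version is not given in the sources used here. Barcodes were filtered on genes, mitochondrial share and hashtag ratio and split into arms by top hashtag. CPM pools raw UMIs; log2 ratios add 1 CPM. UMIs of pDCs were summed per arm (labeled arms with at least 3 cells) and tested with edgeR 4.0.16 (R 4.3.3; filterByExpr, TMM, quasi-likelihood, Benjamini-Hochberg 0.05) in 1 fit of cohort, anti–PD-1 and anti-MIF. Shares were compared by exact sign-flip tests (scipy 1.17.1). Alternatives used DESeq2 1.42.0 and Seurat 5.3.0 HTODemux. The scripts were tested on simulated data. Named genes were the rule genes, all fixed lists (10 or more UMIs for values), the 20 largest log2 ratios (at least 100 CPM, higher in every arm), and the called genes or otherwise the 3 lowest p per coefficient. The cells, lists and tests were chosen with earlier results of these data known.

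To compare shares of cells, each barcode was thinned to 2000 UMIs; 3 pDCs with fewer were left out. Depth per pDC ran from 1756 to 19189 UMIs. Intervals cover counting error only. Coordinates come from GENCODE vM21 on GRCm38, the same build as mm10.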

Additional observations from a re-analysis of the deposited data

How the results depend on the processing

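The long minus short share kept its direction under every alternative run, from 0.119 to 1.75 points, with 0.267 to 1.75 when 1 pair was left out. The anti-MIF mean turned positive as a log2 ratio of shares (0.0521) and ran from -1.20 to 0.283 points with 1 pair left out. The anti–PD-1 mean turned positive with a hashtag ratio of 5 (0.319 points), after thinning to 2000 UMIs (0.119), without cells with other-type markers (0.252) and without cells above the 18-gene list below (0.0323), and ran from -0.946 to 0.387 points with 1 pair left out; the cause was not tested.

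The count of genes called between cohorts, 0, depended on which genes, cells and arms entered. It was 26 with no filter on low counts, 20 with arm sums of at least 10 cells (5 sums, 1 residual degree of freedom), and 0 to 28 with 1 arm sum left out: 28 without short isotype, 4 without the long combination, and 1 each without short anti–PD-1 and short anti-MIF. Leaving out 9 pDCs with 3 or more UMIs of 16 myeloid, B, NK and melanocyte genes gave 24. That list was chosen after seeing the data. Its first version also held Apoe and Clec9a; it removed 25 pDCs and called 0 genes. The 2 genes were taken out because pDCs carry them, after seeing how many pDCs the list removed. Since the 2 versions differ this much and the planned analysis called 0, the 24 calls are not taken as a result. The calls shared 11 genes between the 16-gene list and the fit without short isotype, and 4 between that list and the fit with no filter. For anti-MIF, no filter gave 4 and arm sums of at least 10 cells gave 5, with 0 whichever arm sum was left out. For anti–PD-1 they gave 6 and 13, with 0 to 1, the 1 call coming without short isotype. DESeq2, RLE size factors, at least 3 Siglech UMIs and the planned removal of other-type cells called 0 for all 3. That removal dropped 54 of 111 pDCs and with them the long combination sum. The arm block with 10 sums also called 0 for the cohort. No analysis paired by replicate was possible because the labels give no replicate numbers, and the pairs above are pairs of arms. All of these counts rest on few cells per arm, and the part of cell number in them was not tested.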
